A study of Homo sapiens with 32 samples.

Results

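Chromosome 19 carries the densest collection of zinc finger genes in the human genome, and the proximal part of its long arm holds 63 of them in the RefSeq GRCh38 table. The rule uses name and position and no measured value. It takes protein-coding genes whose symbol is ZNF followed by a digit, with a start from 26 to below 48 Mb. They are 63 of 19974 protein-coding genes, and 250 ZNF genes lie on the whole chromosome when the 84 below 26 Mb and the 103 from 48 Mb are added. The members nearest the limits were ZNF536 (start at 30.2 Mb) and ZNF541 (47.5 Mb), both without a region in either list. Just outside lay ZNF254 (24.03 Mb, 6.67 kb under LOVO and 0 kb under RKO regions) and ZNF114 (48.3 Mb, 2.001 and 3.51 kb).

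H3K9me3, trimethylation of lysine 9 of histone H3, marks heterochromatin. KRAB zinc finger proteins, encoded by many of these genes, bind DNA through a row of C2H2 zinc fingers and, through the KRAB domain, recruit the corepressor TRIM28 and the H3K9 methyltransferase SETDB1. The genes arose by tandem duplication, stand in clusters, usually carry all their fingers in the last exon, and are themselves textbook sites of H3K9me3, typically over that 3′ part while the promoter stays free.

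The series used chromatin immunoprecipitation with sequencing (ChIP-seq) in 2 lines of colon adenocarcinoma cells, LOVO and RKO. Its labels describe 32 libraries in 16 groups of 2. For H3K9me3 these are cells with a control short hairpin RNA (shControl) or one against the m6A RNA methyltransferase METTL3 (shMETTL3), each with inputs. The remaining libraries are METTL3 ChIP and inputs from shControl cells and from cells labelled OLA. The values used here are 2 deposited H3K9me3 region lists, 1 named for LOVO and 1 for RKO, and neither names a library or a condition. They may therefore hold control cells, knockdown cells or both, and the 2 conditions cannot be told apart. With 1 list for each line there is no replicate spread and no test, and all differences between the lines below are differences between 2 lists.

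Over the whole genome the lists differ in size: LOVO holds 14901 regions over 39.9 Mb (median width 2001 bp) and RKO 22130 regions over 70.4 Mb (2585 bp), both without chromosome Y. Between 26 and 48 Mb of chromosome 19 their numbers were nearly the same, 112 in LOVO and 114 in RKO, with 288.0 and 381.2 kb. Of the LOVO regions there, 35 lay in the first 2 Mb, where no member lies, against 5 of the RKO regions. The lists hold no expression value, so the cell type could not be checked. Of 8 colon epithelium genes 1 had a LOVO region (CDH17) and 2 an RKO region (CDH17 and CDH1), and 0 of 5 fibroblast and 0 of 4 blood cell genes had one. Among all protein-coding genes 15.0% had a LOVO and 19.8% an RKO region, and nothing is read from lists this short.

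Of the 63 genes, 11 (17.5%) had a LOVO region in the body and 18 (28.6%) an RKO region, counting any overlap of at least 1 bp. Among all protein-coding genes the shares were 15.0% in LOVO and 19.8% in RKO, so the LOVO count was close to this background and the RKO count somewhat above it. The RKO lead depended on the setting. With lists of equal size, 14901 regions each with the widest kept, 11 genes had a LOVO region and 13 an RKO region. The share of all genes was not computed for that setting. With at least 10% of the body under regions, 11 of 63 genes qualified in LOVO and 10 of 63 in RKO, both well above the 2.36% and 5.03% of all genes. LOVO regions that met one of the 63 genes thus covered 10.6% of its body or more, while the lowest RKO share was 0.943%.

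By the 1 bp rule, most marked genes were called in 1 line only. A region was found in both lines in 4 genes (6.35%, background 10.2%), in LOVO only in 7 (11.1%, background 4.80%) and in RKO only in 14 (22.2%, background 9.61%). The remaining 38 genes (60.3%, background 75.4%) had none. With lists of equal size the counts were 3 in both, 8 in LOVO only and 10 in RKO only. With bodies extended by 2 kb they were 7, 5 and 15, since some genes called in 1 line lie close to a region of the other. Background shares were not computed for these 2 settings. Over bodies merged so that each base counts once, 47.5 kb or 2.10% lay under LOVO regions and 74.9 kb or 3.31% under RKO regions. Over all protein-coding genes the shares were 1.18% and 2.17%, and over the other 353 genes of the same window 0.667% and 0.999%.

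**Figure D1:**
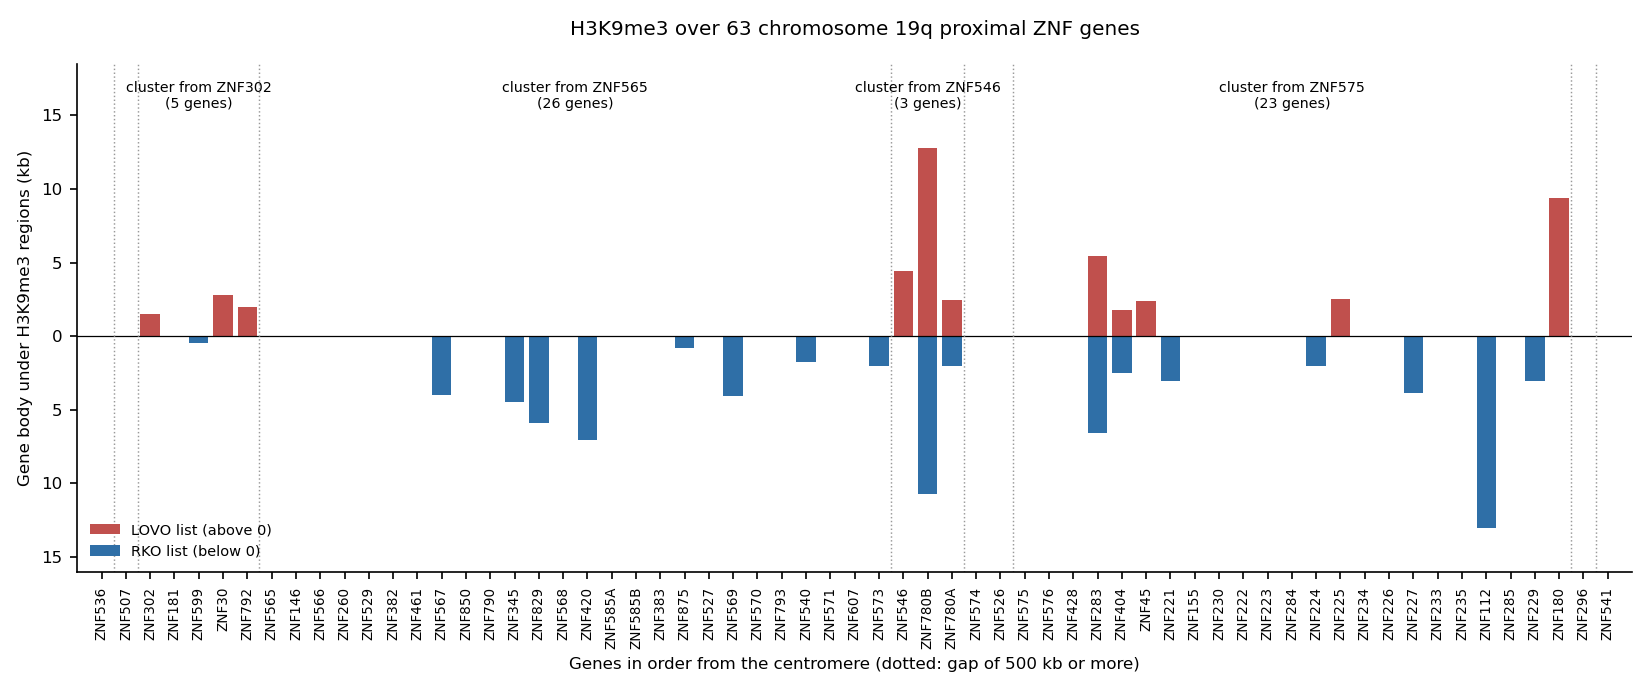
Kilobases of each gene body under LOVO regions (bars above 0) and RKO regions (bars below 0) for the 63 genes in chromosome order, with dotted lines at gaps of 500 kb or more. ZNF780B stands high in both lists, and the cluster from ZNF565 has bars in RKO only.

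The difference between the lists was not the same in every cluster, and in some clusters it changed with the setting. When neighbouring genes less than 500 kb apart were joined, 57 genes fell into 4 clusters of 3 or more, and all 25 genes with a region in either list were among them. The 6 genes outside these clusters had no region in either list. Of all protein-coding genes 75.4% had none either, so these 6 genes are not set apart by it. They were ZNF536, a repressor of neuronal differentiation genes and at 488.0 kb the longest of the 63, ZNF507, ZNF574, ZNF526, ZNF296 and the germ cell gene ZNF541. Nor did the first 3 genes of the last cluster, ZNF575, ZNF576 and ZNF428, have one.

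In the largest cluster, gene bodies were marked in RKO alone. It runs from ZNF565 to ZNF573 (chromosome 19 from 36182060 to 37779586, 26 genes over 1.60 Mb), and 8 of its genes (30.8%) had an RKO region while 0 of 26 had a LOVO region, against 19.8% and 15.0% of all protein-coding genes. The RKO count was 2 with at least 10% of the body under regions, and 5 with lists of equal size or with only the regions wider than the commonest width. The whole span held 13 RKO regions, 10 of them on the ZNF genes, and 3 LOVO regions, of which 2 lay between genes and 1 over the noncoding gene CYKILR. No region of one line there overlapped a region of the other. The distance from a gene of this cluster to the nearest LOVO region ran from 6.28 kb at ZNF607 to 437.4 kb at ZNF850.

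In the first cluster, from ZNF302 to ZNF792 (34675979 to 34964229, 5 genes), LOVO was the higher. LOVO regions lay in 3 of the 5 genes (60%), ZNF302, ZNF30 and ZNF792, and an RKO region in 1 (20%). Over all protein-coding genes the shares were 15.0% and 19.8%. LOVO regions covered 6.30% of the gene bodies. The single RKO overlap was 0.467 kb at the edge of ZNF599, 0.466% of the bodies. That RKO region (34807135 to 34811037) lies mostly beyond the gene and contains a LOVO region (34808328 to 34810328) that stops 0.726 kb short of ZNF599. So the call at ZNF599 differs between the lines although both lists have a region at that place. The span held 8 LOVO and 5 RKO regions, 4 of the latter between genes and one of them 0.427 kb from ZNF792. With only the regions wider than the commonest width, the counts were 1 gene in LOVO and 1 in RKO.

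The third cluster, from ZNF546 to ZNF780A (39997060 to 40090943, 3 genes), was the most heavily covered. All 3 genes had a LOVO region and 2 (66.7%) an RKO region, against 15.0% and 19.8% of all protein-coding genes. Of the body bases 26.7% lay under LOVO and 17.2% under RKO regions. In the last cluster, from ZNF575 to ZNF180 (43530835 to 44500522, 23 genes), 7 genes (30.4%) had an RKO region and 5 (21.7%) a LOVO region. Over all protein-coding genes the shares were 19.8% and 15.0%, so both counts were somewhat above background. RKO regions covered 7.71% of the bases and LOVO regions 4.86%. Here 12 of the 22 RKO regions lay between annotated genes, against 1 of 9 LOVO regions, so counts over gene bodies leave out most of the RKO regions of this stretch.

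**Figure D2:**
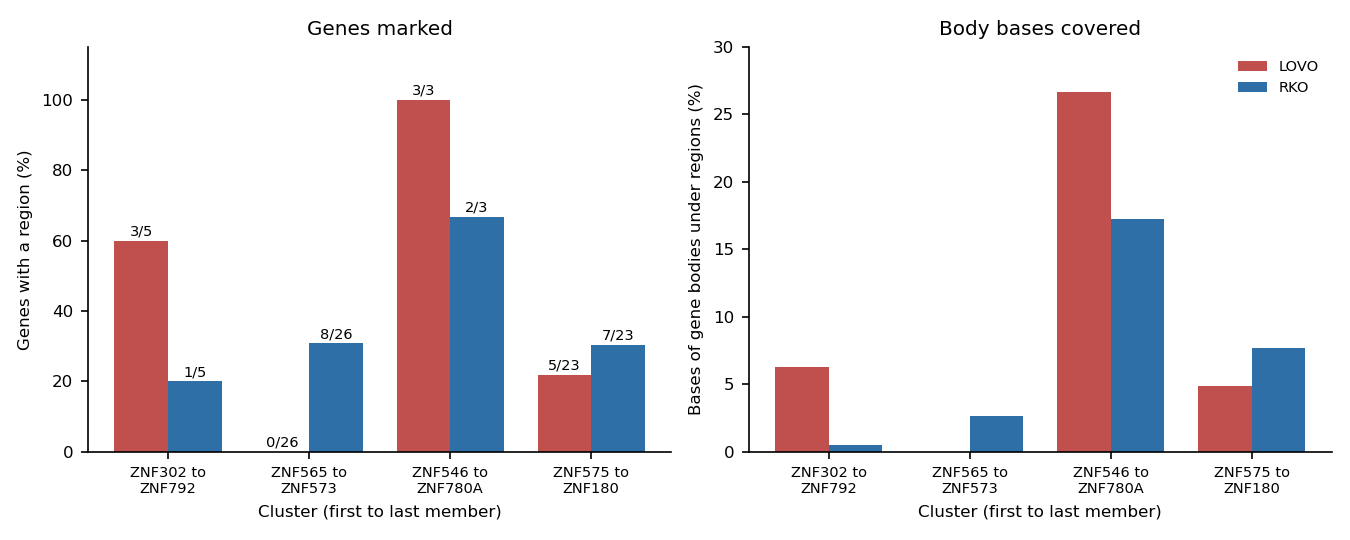
Share of genes with a region (left, with counts) and share of gene body bases under regions (right) in the 4 clusters, for the LOVO and RKO lists. The ZNF565 to ZNF573 cluster has 0 of 26 genes in LOVO and 8 of 26 in RKO, and LOVO is the higher in the ZNF302 and ZNF546 clusters.

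Among the 4 genes marked in both lines, the lists shared bases of the body in 2. ZNF780B (40028260 to 40056231, gene ID 163131), a KRAB zinc finger gene, had 12.8 kb or 45.7% of its body under 4 LOVO regions and 10.7 kb or 38.3% under 2 RKO regions. The 2 lists shared 4776 bases of it. Of its LOVO regions, those at 40037988 to 40039988 and 40041666 to 40043666 lay wholly inside the RKO region from 40037789 to 40045965. It had the highest share of the body under regions in each list.

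ZNF283 (43827321 to 43852017) had 5.45 kb (22.1%) in LOVO and 6.60 kb (26.7%) in RKO, with 1847 bases in common. ZNF404 had 1.795 kb at its 3′ end in LOVO and 2.51 kb nearer the 5′ end in RKO, with 0 bases of the body in common. Its LOVO region reaches beyond the gene and there shares 1603 bases with an RKO region outside the body. ZNF780A, the neighbour of ZNF780B, had 2.47 kb in LOVO and 2.001 kb in RKO, again with 0 bases in common. ZNF780A and ZNF780B resemble each other, as do many genes of these clusters, and how the submitters handled reads with several matching places in the genome is not known here.

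Of the genes marked in LOVO only, ZNF180 (44474431 to 44500522) led with 9.35 kb or 35.8% of its body under 2 regions, while its nearest RKO region lay 39.8 kb away. ZNF546 had 4.39 kb (18.3%) under a region of the same width, and an RKO region lay 1.34 kb from the gene. ZNF30 had 2.82 kb, ZNF225 2.52 kb and ZNF45 2.405 kb. The smallest values were those of ZNF792 (2.001 kb, which is 25.4% of this short gene) and ZNF302 (1.505 kb). In LOVO, 8 of the 11 genes carried 1 region each, and the median over the 11 was 2.52 kb.

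Of the genes marked in RKO only, ZNF112 (44326553 to 44367217) had the most, 13.1 kb or 32.1% of its body under 3 regions, one of them 10256 bp wide (44329217 to 44339472). Its nearest LOVO region lay 84.2 kb away. ZNF420, which encodes a KRAB protein known to restrain p53, had 7.04 kb under 2 regions, 5.74% of a body of 122.5 kb. ZNF829 had 5.87 kb and ZNF345 4.45 kb. These 2 genes meet tail to tail, and the region from 36890771 to 36896640 lies in both, so their calls are not independent. ZNF569 had 4.07 kb and ZNF567 4.02 kb.

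Lower in the same group were ZNF227 (3.87 kb), ZNF229 (3.07 kb), ZNF221 (3.04 kb), and ZNF573 and ZNF224 with 2.001 kb each. ZNF224 encodes a KRAB repressor of the aldolase A gene. ZNF540 (1.78 kb), ZNF875 (0.827 kb) and ZNF599 (0.467 kb) had the least. The RKO-marked genes were longer (median 35.5 kb) than those without an RKO region (22.7 kb), whereas in LOVO the marked genes had a median of 22.7 kb and the others 28.9 kb. Longer bodies offer more bases to meet a region. The part of length in the counts was not tested.

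After ZNF536, the longest genes without a region were ZNF568 with 81.6 kb, whose mouse counterpart represses a placental transcript of Igf2, and ZNF565 with 63.9 kb. The 7 genes at the start of that cluster, from ZNF565 to ZNF461, had no region either. One of them, ZNF260, lay 0.168 kb from an RKO region, and the tumour suppressor candidate ZNF382 lay 62.4 kb from one.

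Within the body, LOVO regions lay mostly toward the 3′ end, and RKO regions lay in the middle and 3′ parts. Strand was known for 57 of the 63 genes, from the RefSeq promoter table. It is not listed for ZNF30, ZNF571, ZNF221, ZNF155, ZNF223 and ZNF233, which are left out here. When each body was divided into 3 equal parts in the direction of transcription, the 3′ part held 57.7% of the bases under LOVO regions, the middle part 25.02% and the 5′ part 17.3%. Over all protein-coding genes with a known strand the 3′ part held 29.0% and the 5′ part 36.2%. In RKO the 3′ part held 44.3%, the middle part 45.7% and the 5′ part 10.02%, against 26.1% in the 3′ and 39.0% in the 5′ part over all genes.

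The 3′ weight was spread over genes in LOVO and rested more on 1 gene in RKO. In LOVO, 8 of 10 marked genes had most of their covered bases in the 3′ part (29.4% of the marked genes among all), and without ZNF780B the 3′ part still held 59.5% of the bases. In RKO 7 of 17 genes had most of their bases in the 3′ part (26.4% of the marked genes among all), 7 in the middle part and 3 in the 5′ part. With each marked gene weighted equally, the RKO shares were 38.6% in the 3′ and 41.1% in the middle part, and without ZNF112 the 3′ share of the bases was 35.7%. The other ZNF genes of chromosome 19 had 56.7% of their LOVO and 34.6% of their RKO bases in the 3′ part, so the difference between the lines in this value was also seen there.

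**Figure D3:**
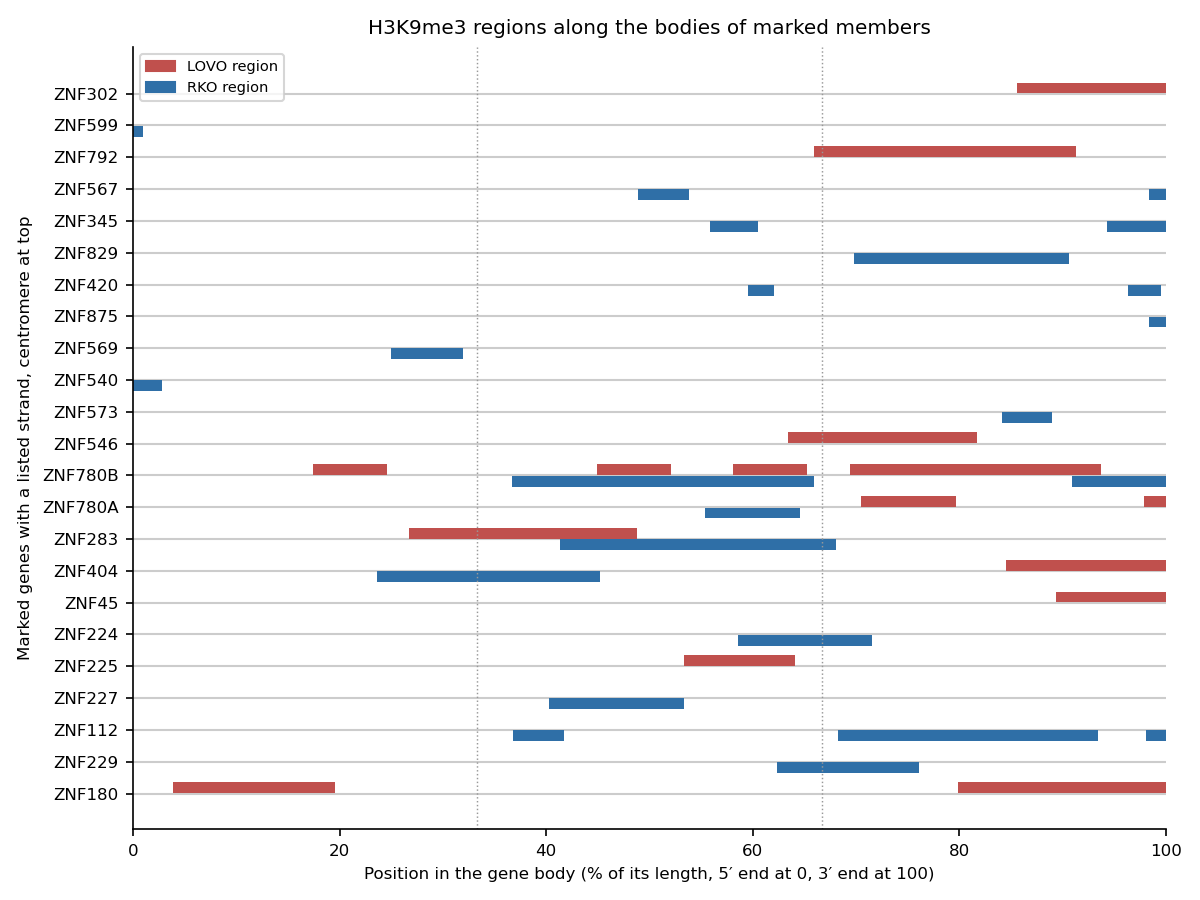
Position of each LOVO and RKO region along the body of the 23 marked genes with a listed strand, as percent of the body from the 5′ end (0) to the 3′ end (100), with dotted lines between the 3 equal parts. LOVO regions crowd to the right and RKO regions to the middle and right, and ZNF599 and ZNF540 alone have a region at 0. The 5′ end is that of the gene span, and for ZNF599 it is no listed start.

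The ends of the body were compared gene by gene. ZNF302, ZNF45, ZNF404, ZNF780A and ZNF180 had a LOVO region over the last base of the body, 5 of 57 genes against 0.847% of all genes. ZNF567, ZNF345, ZNF875, ZNF780B and ZNF112 had an RKO region there, also 5 of 57, against 1.08%. Among the other chromosome 19 ZNF genes the last base was covered in 16 of 162 in LOVO and 7 of 162 in RKO. A covered 3′ end was thus also seen there. The first base of the body was covered in 0 of 57 genes in LOVO (0.436% of all genes) and in 2 in RKO, ZNF599 and ZNF540 (0.727%). In ZNF599 this base is the end of the gene span and no listed start. Its listed promoter window lay 33.7 kb from the nearest RKO region. In 5 genes, ZNF302, ZNF829, ZNF875, ZNF573 and ZNF45, every covered base lay in the 3′ part.

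ZNF420, ZNF567 and ZNF345 of the ZNF565 cluster had 2 RKO regions each, with a gap of unmarked bases between. In ZNF420 one region began 72.9 kb from the 5′ end of the span and the other ended 0.557 kb before the 3′ end. The listed starts of ZNF420 lie inside the span, and their promoter windows were 2.525 and 2.31 kb from the first of these regions. In ZNF567 the regions began 29.6 and 59.6 kb from the 5′ end, and in ZNF345 23.9 and 40.4 kb. ZNF569 had its region 14.5 to 18.6 kb from the 5′ end and 39.5 kb short of the 3′ end. ZNF225, ZNF227 and ZNF283 had most of their bases in the middle part.

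**Figure D4:**
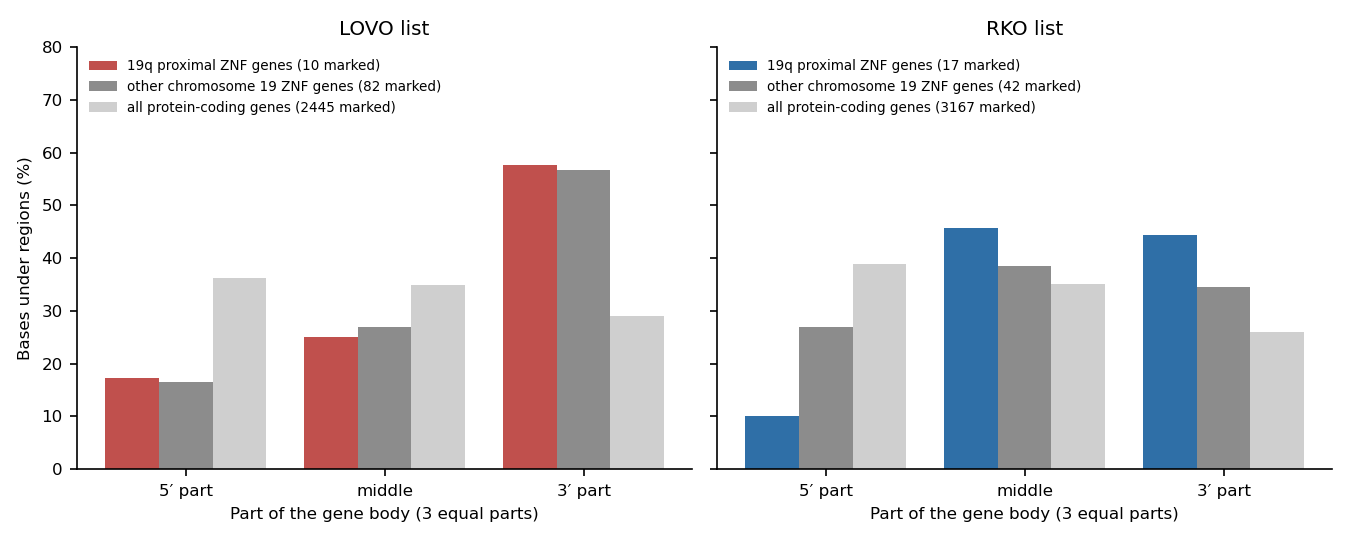
Share of the bases under LOVO (left) and RKO (right) regions that lie in the 5′, middle and 3′ part of the gene body, for the 19q proximal ZNF genes, the other chromosome 19 ZNF genes and all protein-coding genes. In both panels the coloured bars are higher in the 3′ than in the 5′ part, and the light bars of all genes are lower there.

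Promoters were almost free of regions. The RefSeq promoter table (GRCh38.p14) has windows of 300 bases, 250 before and 50 after a start, for 57 of the 63 genes, with 85 windows in all. A LOVO region touched the window of 0 of 57 genes, where 0.607% of all protein-coding genes had one. An RKO region touched that of 1 gene, ZNF540, where 0.999% had one. With so few windows touched among all genes, 0 and 1 of 57 do not set these genes apart. The ZNF180 promoter lay 0.959 kb from a LOVO region, that of ZNF546 1.09 kb from an RKO region, and that of ZNF780B, the most covered gene, 4.82 and 6.21 kb from the nearest LOVO and RKO regions.

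The 250 bases before a listed start are shown, 5′ to 3′ on the strand of the gene, for the gene with a region on its promoter, ZNF540, and for the genes with most covered bases among those marked in both lines, in RKO only and in LOVO only. Capitals mark matches on either strand to ACTACA and TCCCA with any 2 bases (NN) between, the core of an element known to be bound by ZNF143 and THAP11. The motif was chosen after the sequences had been read. The windows are chr19:37551124-37551373 (plus strand), chr19:40056232-40056481, chr19:44356705-44356954 and chr19:44500523-44500772 (minus strand).
ZNF540: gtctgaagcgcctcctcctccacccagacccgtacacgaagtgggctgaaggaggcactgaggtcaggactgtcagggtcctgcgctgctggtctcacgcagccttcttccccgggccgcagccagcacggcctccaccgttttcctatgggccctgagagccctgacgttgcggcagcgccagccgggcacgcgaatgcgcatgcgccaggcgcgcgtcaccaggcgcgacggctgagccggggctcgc
ZNF780B: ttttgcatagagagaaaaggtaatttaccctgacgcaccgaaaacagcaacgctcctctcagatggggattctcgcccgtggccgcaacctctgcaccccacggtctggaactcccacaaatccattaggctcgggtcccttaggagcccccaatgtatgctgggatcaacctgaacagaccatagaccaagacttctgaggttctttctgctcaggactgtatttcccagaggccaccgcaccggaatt
ZNF112: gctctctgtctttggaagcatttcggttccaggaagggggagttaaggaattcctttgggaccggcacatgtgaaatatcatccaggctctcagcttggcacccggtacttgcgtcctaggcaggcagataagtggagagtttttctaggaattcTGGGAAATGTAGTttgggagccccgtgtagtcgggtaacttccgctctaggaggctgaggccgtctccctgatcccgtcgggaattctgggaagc
ZNF180: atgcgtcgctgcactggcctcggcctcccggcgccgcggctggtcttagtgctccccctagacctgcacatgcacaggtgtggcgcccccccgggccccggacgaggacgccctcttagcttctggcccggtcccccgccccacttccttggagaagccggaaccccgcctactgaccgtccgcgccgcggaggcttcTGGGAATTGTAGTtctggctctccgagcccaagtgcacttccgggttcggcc

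The windows shown for ZNF112 and ZNF180 carry the motif once each on the reverse strand, and ZNF540 and ZNF780B have no match in theirs. ZNF112 has 3 listed starts. The window shown belongs to one inside the gene span, and the window at the 5′ end of the span (44367218 to 44367467) has no match. The motif was frequent among the 63 genes, but it was chosen after sequences of these genes had been read, so its excess here is no test. It was found before a listed start in 23 of the 57 genes (40.4%), against 10 of 162 other ZNF genes of chromosome 19 (6.17%) and 361 of 15812 protein-coding genes (2.28%). It was present in 13 of 23 genes with a region in either list and in 10 of 34 without one. A window of ZNF420 and one of ZNF225 held 2 copies each. Over windows, 24 of 85 held it (28.2%), against 1.71% of the windows of all protein-coding genes. Genes that arose by duplication share promoter sequence, so these counts are not independent. A match is a description of the letters and no evidence of binding.

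CG, the dinucleotide that carries DNA methylation, had a median in the same windows close to that of all genes, while few windows were poor in it. The sequence before the start held a median of 17 CG in the 85 windows and 16 over all protein-coding genes. At least 10 CG were found in 89.4% of the windows of the 63 genes and in 65.5% of those of all genes. The ZNF540 promoter under the RKO region had 25 CG, that of ZNF180 24, and those of ZNF780B and ZNF112 10 each.

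Elsewhere on chromosome 19 more ZNF genes were marked in LOVO than in RKO. Below 26 Mb, 56 of 84 ZNF genes (66.7%) had a LOVO region and 26 (31.0%) an RKO region, and from 48 Mb 40 of 103 (38.8%) and 25 (24.3%) had one. The RKO share of the 19q proximal genes (28.6%) lay between these 2 RKO shares, while their LOVO share (17.5%) was the lowest of the 3. Genes marked in LOVO only outnumbered those in RKO only by 34 to 4 below 26 Mb and by 28 to 13 from 48 Mb, against 7 to 14 in the 19q proximal genes. These counts are for any overlap, and the opposite order did not hold at the higher threshold. With at least 10% of the body the 19q proximal genes were near even, 11 in LOVO and 10 in RKO (8 in LOVO only, 7 in RKO only). The counts were 33 and 16 below 26 Mb and 28 and 16 from 48 Mb. With lists of equal size RKO stayed the higher in the 19q proximal genes, 13 against 11 in LOVO. The other ZNF genes then gave 56 in LOVO and 21 in RKO below 26 Mb, and 40 and 20 from 48 Mb. The median length of the 19q proximal genes was 24.7 kb, against 28.5 kb below 26 Mb and 19.1 kb from 48 Mb. Neighbouring genes share regions and no replicate lists exist, so this difference has no test.

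The other protein-coding genes between 26 and 48 Mb were marked far less often. Of 353 such genes 14 (3.97%) had a LOVO region and 19 (5.38%) an RKO region, below the 15.0% and 19.8% of all protein-coding genes. Their median length was 14.3 kb. Of all regions in the window, 16 of 112 LOVO regions (14.3%) and 23 of 114 RKO regions (20.2%) touched one of the 63 ZNF genes. The median width of those was 2603 bp in LOVO and 3055 bp in RKO, against 2001 and 2515 bp for regions between genes. Of the 16 LOVO and 23 RKO regions on the ZNF genes, 5 and 4 overlapped a region of the other list. Over the whole window the counts were 32 of 112 LOVO regions (28.6%) and 30 of 114 RKO regions (26.3%).

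**Figure D5:**
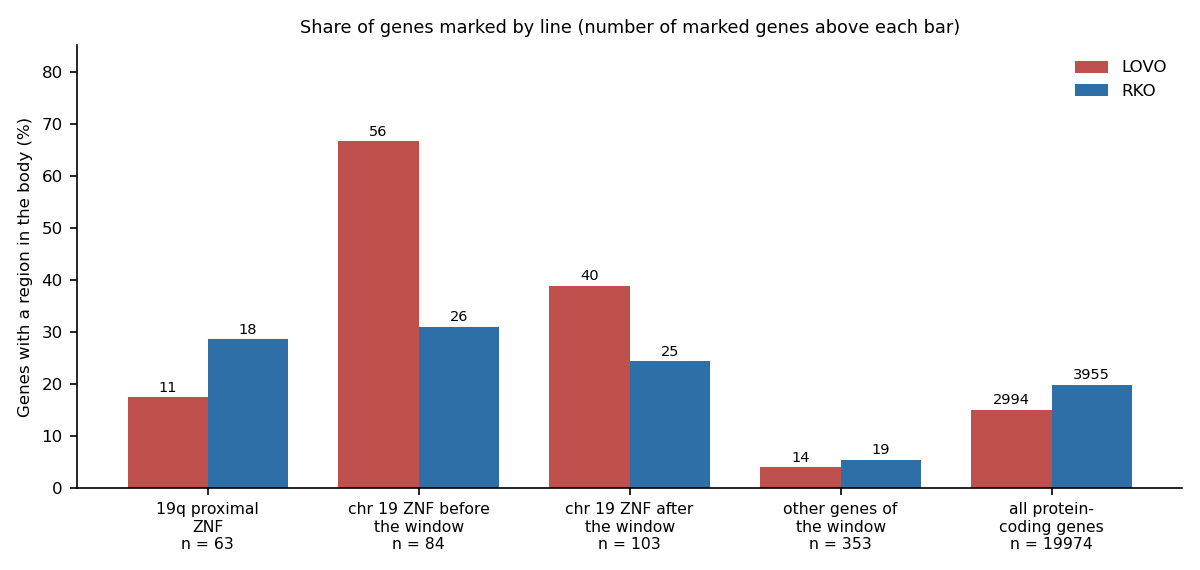
Share of genes with a region in the body in the LOVO and RKO lists for the 19q proximal ZNF genes, ZNF genes before and after that window on chromosome 19, the other protein-coding genes of the window and all protein-coding genes, with counts above the bars. RKO is the higher bar for the 19q proximal genes (18 against 11, by any overlap) and LOVO for the other ZNF groups.

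Genes that act with KRAB proteins or keep H3K9me3 at their targets were looked at as the other side of the pathway. Of 20 such genes, 4 had a LOVO region and 5 an RKO region, with 3 in both. These counts lie near the background of 15.0% and 19.8% of all protein-coding genes. SETDB1 had 2.51 kb in LOVO and 5.27 kb in RKO, its partner ATF7IP 29.4 and 20.5 kb, and the HUSH-associated ATPase gene MORC2 2.402 and 2.969 kb. ZNF274, on distal 19q, encodes a KRAB protein known to bind the 3′ ends of ZNF genes, and it had 2.57 kb in LOVO and 0 kb in RKO. In RKO only, ATF7IP2 had 6.77 kb and ATRX 4.61 kb. TRIM28 and the heterochromatin protein genes CBX1, CBX3 and CBX5 had no region in either list.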

How the data were processed

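Tools named in the submitters' processing notes, without a stated role, are HOMER 4.11, Picard 2.26.0, Bowtie2 2.4.2, Trim Galore 0.6.6 and FastQC 0.11.9. The build named there is hg38. The authors deposited regions with start and end positions in base pairs and no score or p-value. Which settings, inputs and libraries lie behind each list, and at what depth, is not stated in the sources used here. Whether depth or the number of libraries set the number and width of regions was not tested.

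Gene bodies were single spans of the RefSeq GRCh38.p14 table, without exons. Bases under regions were counted, bodies were cut into 3 equal parts by strand, and overlaps needed 1 bp. The members, lists and rules were chosen with earlier results of these data known. Named genes were those with most bases over both lists (10), most in 1 list without a region in the other (5 each), the highest share of the body (5 in each list), the 3 longest without a region, the first and last of each cluster, and the 3 with most bases in the 3′ part only. Other genes are named to complete a count and were chosen after their values were seen. Sums were tested on simulated data: 0 of 200 simulated bodies were wrong. The work used matplotlib 3.10.9, scipy 1.17.1, pandas 2.3.3 and numpy 2.4.6 under Python 3.11.15.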

Additional observations from a re-analysis of the deposited data

How the results depend on the processing

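No paired analysis was possible because each line has 1 list, without replicate numbers. Depth is unknown, so a gene without a region may hold mark below detection. The values below moved by more than 1.5 times, or out of the binomial interval of a share. The cause was not tested, and the position settings with other parts of the body are other measures. The interval counts each kilobase as an independent draw, although kilobases of the same region or gene are not independent.

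With 10% of the body, RKO counts were 10 genes marked (7 in RKO only), 0 in the ZNF302 cluster, 2 in the ZNF565 cluster and 1 in the ZNF546 cluster. The ZNF genes below 26 Mb then gave 33 in LOVO and 16 in RKO, those from 48 Mb 16 in RKO, and the other genes of the window 4 and 7. With only the regions wider than the commonest width, LOVO had 1 gene in the ZNF302 cluster, 37 below 26 Mb and 7 other genes of the window. With that setting, and with lists of equal size, RKO had 5 in the ZNF565 cluster and 1 in the ZNF546 cluster. With bodies extended by 2 kb, 7 genes were marked in both lines and 2 in RKO in the ZNF302 cluster, and with midpoints the latter was 0. Comparing the last with the first 5 kb, the 3′ end held 81.03% of LOVO and 79.3% of RKO bases, and the 3′ side of the midpoint of the body held 72.7% of RKO bases. Leaving out the gene with most bases, and starting bodies at the outermost listed start, were chosen after seeing the data and moved neither share past that limit. Leaving out that gene gave 59.5% in LOVO and 35.7% in RKO in the 3′ part. This limit counts the RKO value as unmoved from 44.3%. The outermost listed start gave 57.7% and 44.6%.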

Other observations

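In the last cluster 12 RKO regions lay between genes, and some of them are given here, chosen after their positions were seen. Between ZNF283 and ZNF404 the RKO list holds regions from 43855565 to 43858097, from 43859060 to 43861565 and from 43865109 to 43872037, and the last of these shares 1603 bases with the LOVO region on the 3′ end of ZNF404. Before ZNF233 lie RKO regions from 44245304 to 44250577 and from 44254309 to 44258005, the latter 1.88 kb from the gene. ZNF45 itself is marked in LOVO only, with an RKO region 2.55 kb away. In the LOVO list a region from 44462182 to 44464182 and part of the ZNF180 region cover the pseudogene ZNF285BP.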
